A study of Mus musculus with 9 samples.

Results

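Ribosomal proteins of the cytosolic ribosome were examined in dendritic cells taken from mouse lung. The genes were chosen by symbol, as names starting with Rpl or Rps followed by the subunit number, the laminin receptor gene Rpsa and the stalk genes Rplp0, Rplp1 and Rplp2, without copies whose name ends in -ps. Of 45535 rows with a gene symbol, 89 matched. These comprise 77 subunit genes (43 of the large subunit, 31 of the small subunit and 3 of the stalk) and 12 paralogs or like copies, of which 6 are annotated as pseudogenes. All 77 subunit genes and 7 of the 12 paralogs or copies passed the minimum for testing, a mean of 10 normalized counts over all samples, and so made up 84 of the 18202 genes tested in all.

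All mice are labelled C57/BL6j, with no other allele given, and had received bleomycin, a drug that injures the lung, for 7 days. Lungs were digested with collagenase and CD103+ dendritic cells were pulled out on magnetic beads. In 5 samples RNA was taken at once (before culture), and in 4 samples the cells were first kept for 18 h in RPMI with serum and penicillin/streptomycin (after culture). There was no uninjured group. Whether 1 mouse or a pool made up a sample is not given, so the p-values measure the spread between these samples, which may be technical.

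Each cytosolic ribosome is built from ribosomal RNA and one copy of most ribosomal proteins. A pair of acidic proteins at the stalk of the large subunit recruits the elongation factors. In vertebrates the mRNAs of these proteins start with a C followed by a run of pyrimidines (C or T in the gene), the terminal oligopyrimidine or TOP motif, through which mTOR signalling and the RNA-binding protein Larp1 adjust their translation and stability. Most of these genes also have many processed pseudogenes, so a short read from one gene often matches several places.

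The start sites below show that motif, or its absence, in genes the results turn on. They come from RefSeq promoters on GRCm38.p6, which held 64 of the 89 genes and 57 of the 77 subunit genes. Each line gives 15 bases on either side of the annotated start, on the gene's strand, with the longest pyrimidine run shown in capitals. Rps21 and Rps27l have a further annotated start, not shown.
Rps6 (chr4:86857353-86857382, minus strand): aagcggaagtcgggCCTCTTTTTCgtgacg
Rps27 (chr3:90213634-90213663, minus strand): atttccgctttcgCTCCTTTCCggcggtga
Rplp2 (chr7:141447636-141447665, plus strand): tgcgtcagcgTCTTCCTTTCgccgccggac
Rps21 (chr2:180257364-180257393, plus strand): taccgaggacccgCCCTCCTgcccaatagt
Rps28 (chr17:33824548-33824577, minus strand): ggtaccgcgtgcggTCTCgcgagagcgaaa
Rps27l (chr9:66946071-66946100, plus strand): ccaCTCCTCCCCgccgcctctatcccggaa
Rpl7l1 (chr17:46782642-46782671, minus strand): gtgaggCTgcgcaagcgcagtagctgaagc
Rpl22l1 (chr3:28805493-28805522, plus strand): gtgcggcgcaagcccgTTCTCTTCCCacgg
Rps6, Rps27, Rplp2 and Rps21 have C followed by 4 pyrimidines at the annotated first base. Rps28 and the paralogs Rps27l, Rpl7l1 and Rpl22l1 do not. Across the 57 subunit genes this start was annotated in 13 (22.8%), against 3.01% of all 27025 genes in the table. A run of at least 8 pyrimidines within 25 bases of the start was found in 30 of the 57 (52.6%), against 22.3% of all genes. An annotated start that is a few bases off would hide the motif, so a missing match says only that these letters are not at this position.

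Depth ran from 14.7 to 35.3 M reads in named genes per sample. All 12 markers of CD103+ (type 1) conventional dendritic cells were detected, among them Itgae, Xcr1 and Clec9a. Their summed normalized counts were 151793 to 181846 before and 46345 to 52157 after culture, with 8 lower and 4 higher. Markers of other lung cells were also present, and no marker was at 0 in all samples. Endothelial markers summed to 23311 to 33498 before and 3252 to 4278 after culture (7 of 7 lower), fibroblast markers to 15611 to 28377 and 2206 to 4422 (6 of 6 lower), and alveolar epithelial markers to 24074 to 40368 and 4293 to 8163 (7 of 7 lower). Sums of alveolar macrophage markers (4 of 6 lower, 1 higher) and NK cell markers (5 of 6 lower) were also below those before culture in every sample. Sums of neutrophil (7 of 8 lower, 1 higher), T cell (2 of 7 lower, 1 higher) and B cell markers (1 of 5 lower, 1 higher) overlapped between the groups. The part of these shifts in the ribosomal protein values was not tested, and in such bulk samples fewer cells of a type and less RNA per cell cannot be told apart.

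One library stood apart among the subunit genes. Before-culture replicate 4 was the lowest of its group in 65 of the 77 subunit genes, with a median difference of -0.37 (log2) from the mean of the other 4 before-culture samples and a range from -1.69 (Rplp1) to 0.28. Its reads in rows without a gene symbol were 6.43%, against 9.08 to 10.9% in the other before-culture samples. Over all tested genes its median deviation from the group mean was 0.011. The scaling keeps that median near 0 in every sample (-0.010 to 0.024), so it cannot show whether replicate 4 differed in other genes. Over all named genes it differed more from the other before-culture samples than they did from each other. Chi-square per degree of freedom was 25.3 to 39.2 in its pairs, against 7.02 to 12.1 in the others. Results are therefore given with and without it where it matters. Among the after-culture samples, replicate 3 was lowest in 74 of the 77 genes and replicate 2 was highest in 63. By library name, after-culture replicate 3 bears the same number, 4, as before-culture replicate 4. Over all tested genes the deviations of these samples from their group means had a correlation of 0.349. Whether a shared number marks the same mice is not given.

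**Figure D1:**
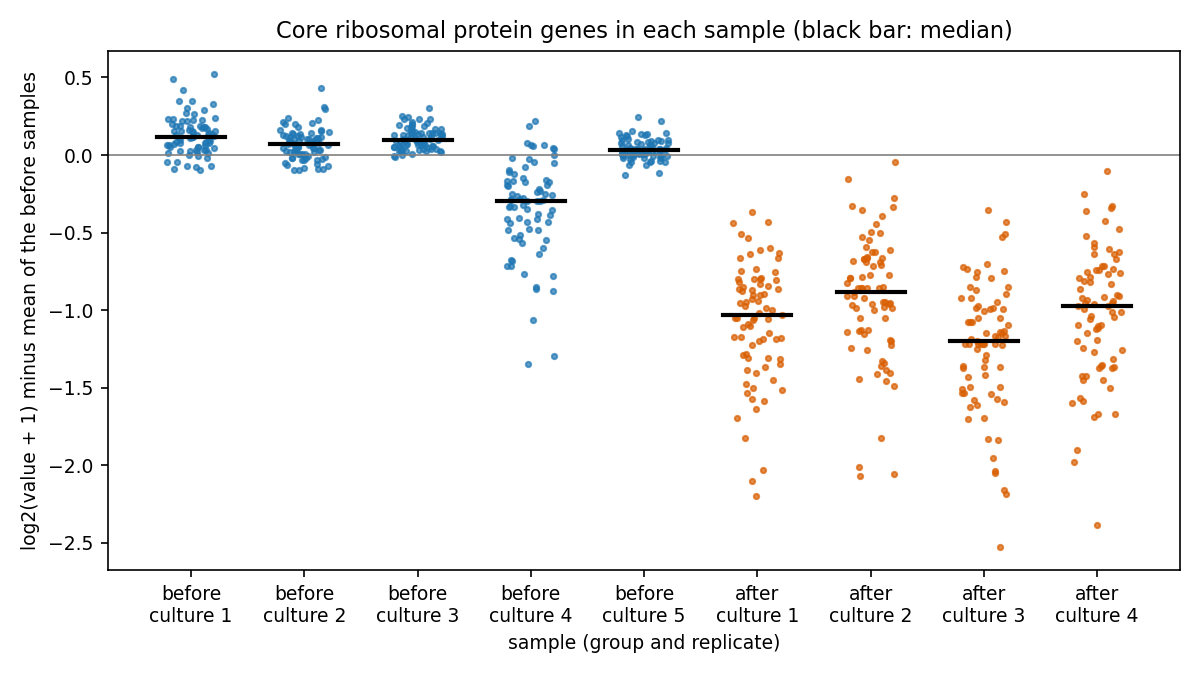
Each point is 1 of the 77 subunit genes in 1 sample (horizontal axis), plotted as log2(normalized count + 1) minus its mean over the before-culture samples (vertical axis), and black bars are sample medians. The medians are 0.12, 0.07, 0.10, -0.29 and 0.03 in the before-culture samples, with replicate 4 lowest, and -1.03, -0.89, -1.20 and -0.97 after culture.

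Transcripts of nearly every ribosomal protein gene were less abundant after 18 h of culture. In limma, 80 of the 84 tested genes were lower at an adjusted p under 0.05, 2 were higher (Rps27l and Rpl7l1) and 2 were not called (Rps4l and Rps3a2). Over all 18202 tested genes 34.6% were called lower and 34.2% higher, 68.8% in either direction. All 77 subunit genes were called lower, and in 76 of them every after-culture sample was below every before-culture sample, as in 28.6% of all tested genes. The exception was Rpl24. The median log2 fold change of the 77 was -1.03, with the middle 50% between -1.33 and -0.82, while the median of all tested genes was 0.0065. At least a 2-fold fall was called in 42 of the 77, against 18.6% of all tested genes. Without before-culture replicate 4 all 77 were again called lower, with a median of -1.09.

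The reads taken up by these genes fell accordingly. All 89 members held 2.94% ± 0.179 of named reads before culture (SD, n = 5) and 1.57% ± 0.0584 after (SD, n = 4). Sample by sample the share was 3.12, 3.01, 3.01, 2.64 and 2.95% before and 1.57, 1.63, 1.49 and 1.58% after. The groups did not overlap, and the lowest value before culture was that of replicate 4. Large-subunit genes went from 1.44% ± 0.0643 to 0.766% ± 0.0311 of reads, small-subunit genes from 1.29% ± 0.0889 to 0.685% ± 0.0241, and stalk genes from 0.211% ± 0.0261 to 0.102% ± 0.00346. Of the reads in large- and small-subunit genes, the large subunit held 52.8% ± 0.648 before and 52.8% ± 0.202 after culture. Mitochondrial ribosomal protein genes held 0.119% ± 0.00745 of named reads before and 0.125% ± 0.00261 after.

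**Figure D2:**
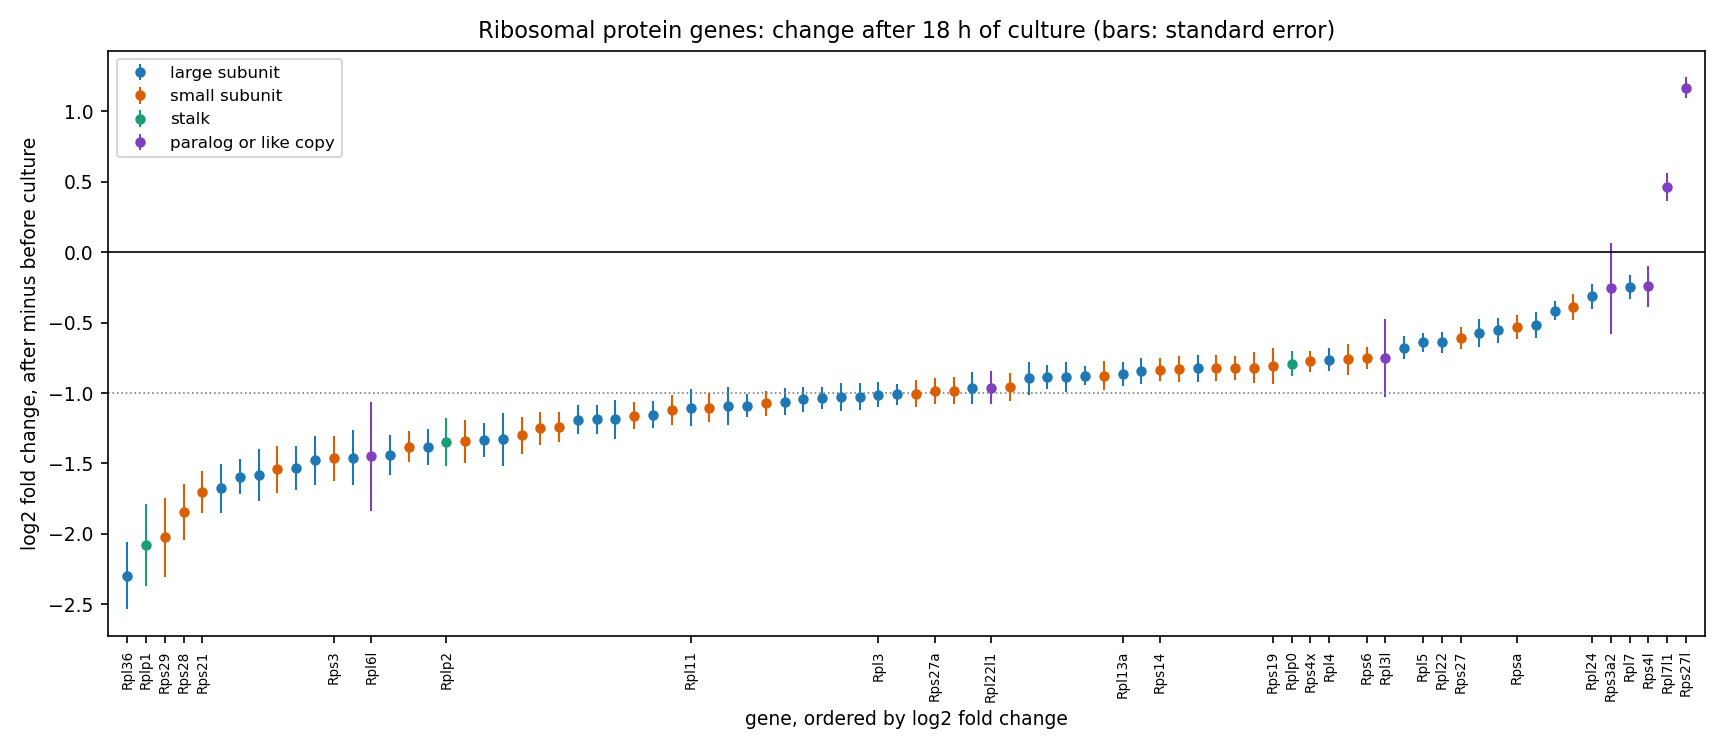
Log2 fold change (vertical axis, after minus before culture) of the 84 tested genes in order of size, coloured by role, with bars for the standard error, a dotted line at a 2-fold fall and names for the genes chosen by the naming rule. All 77 subunit genes lie below 0, from -2.30 for Rpl36 to -0.25 for Rpl7, and the paralogs Rps27l (1.17) and Rpl7l1 (0.46) lie above it.

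The stalk of the large subunit showed unequal falls. Rplp1, one of the acidic stalk proteins that contact elongation factors (chr9:61913284-61914542, minus strand), had 16973, 15997, 14579, 4645 and 12632 normalized counts before and 2751, 2843, 2605 and 3005 after culture. Replicate 4 was far below the other before-culture samples and still above all after-culture samples. The log2 fold change was -2.08 (SE 0.292, adjusted p = 2.76e-05), a mean 4.63 times as high before as after, or 5.37 times without replicate 4. Its partner Rplp2 had 6361, 6061, 6349, 3294 and 5742 before and 2169, 2430, 1855 and 2089 after culture (log2 fold change -1.35, SE 0.168, adjusted p = 9.18e-06). Here too replicate 4 was lowest before culture and the groups did not overlap. Rplp0, which anchors the acidic pair to the ribosome, went from 36350 ± 2447 to 21026 ± 1838 (log2 fold change -0.79, SE 0.0892, adjusted p = 3.50e-06), and was thus 1.73 times as high before culture.

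Among large-subunit genes Rpl36 (chr17:56613416-56614243, plus strand) had the largest fall of all members. It stood at 4296, 4146, 3859, 1615 and 3936 normalized counts before and 733, 801, 585 and 644 after culture. Replicate 4 was less than the other before-culture values but above every after-culture value. The log2 fold change was -2.30 (SE 0.237, adjusted p = 1.49e-06), and the mean was 5.17 times as high before as after, or 5.88 times without replicate 4.

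Rpl5 and Rpl11, which form a particle with the small ribosomal RNA of the large subunit and can bind Mdm2, differed in size of change. Rpl11 had 4421, 4028, 4018, 2696 and 3843 before and 1810, 1936, 1450 and 1825 after culture (log2 fold change -1.10, adjusted p = 5.67e-06). Rpl5 had 10306, 10829, 10838, 11125 and 10182 before and 6728, 7046, 6405 and 7182 after (-0.64, adjusted p = 1.65e-06). Neither gene's groups overlapped. Replicate 4 was the lowest before-culture sample for Rpl11 and the highest for Rpl5.

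Rpl3 and Rpl4 are long large-subunit proteins, Rpl3 reaching toward the catalytic centre and Rpl4 lining the exit tunnel of the nascent chain. Rpl3 went from 19141 ± 1235 to 9525 ± 1016 (log2 fold change -1.01, adjusted p = 2.47e-07). Rpl4 had 20222, 19927, 20217, 20867 and 20524 before and 11159, 13171, 10746 and 13067 after culture (-0.76, adjusted p = 1.85e-06). Its before-culture samples lay close together, replicate 4 included. Rpl22, an RNA-binding subunit protein, went from 2841 ± 111 to 1827 ± 151 (-0.64), and Rpl13a, also known for silencing of inflammatory mRNAs, from 2938 ± 324 to 1606 ± 59.8 (-0.86).

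The smallest falls were in Rpl7 and Rpl24, both of the large subunit. Rpl7 had 12166, 12767, 13047, 14818 and 12473 normalized counts before and 10073, 11711, 10192 and 12122 after culture. Replicate 4 was the highest of all samples, and the lowest before-culture value was barely above the highest after-culture value. The log2 fold change was -0.25 (SE 0.0857, adjusted p = 0.0211). That call was lost without after-culture replicate 1 (adjusted p = 0.0771), without after-culture replicate 3 (0.0519) and under upper-quartile scaling (log2 fold change -0.14, adjusted p = 0.171). With the GC and length correction the log2 fold change was -0.42, and its adjusted p ran from 0.00049 to 0.171 over 22 alternatives.

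Rpl24 (chr16:55966275-55971435, plus strand), which forms a bridge between the subunits, had 1197, 1152, 1269, 1230 and 1321 before and 913, 1193, 913 and 972 after culture. After-culture replicate 2 was above before-culture replicate 2, so the groups overlapped. The log2 fold change was -0.31 (SE 0.0897, adjusted p = 0.00693), and its adjusted p stayed at or below 0.0483 in all 22 alternatives, with -0.21 under upper-quartile scaling.

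The small-subunit genes with the largest falls were Rps29, Rps28 and Rps21, whose coding sequences are 168, 207 and 249 bases long. Rps29, a zinc-binding protein of the subunit head (chr12:69157722-69159186, minus strand), had 12785, 11304, 10847, 3705 and 10794 before and 2224, 2259, 2042 and 2436 after culture. Its log2 fold change was -2.03 (SE 0.279, adjusted p = 2.27e-05), a mean 4.41 times as high before as after, or 5.10 times without replicate 4. Replicate 4 again lay between the other before-culture samples and the after-culture samples.

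Rps28 had 6153, 5655, 5678, 2673 and 5384 before and 1383, 1387, 1183 and 1540 after culture (log2 fold change -1.84, SE 0.198, adjusted p = 2.20e-06). Rps21 had 3399, 3224, 3433, 1994 and 2832 before and 902, 1040, 752 and 915 after (-1.70, SE 0.148, adjusted p = 2.70e-07). In both genes replicate 4 was lowest before culture and the groups were apart. Rps28 shares exon positions with Kank3, and the counting is not stated to use strand, so reads of the pair could have been mixed.

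Some small-subunit proteins have well-known places or further roles. Rps3, at the entry of the mRNA channel, had 13882, 13440, 14025, 7401 and 12093 before and 4341, 4538, 3934 and 4406 after culture (log2 fold change -1.46, adjusted p = 2.30e-06). Rps6, the substrate of the S6 kinases downstream of mTOR, had 14044, 13131, 14154, 14350 and 13944 before and 7715, 9042, 7471 and 8929 after (-0.75, adjusted p = 1.51e-06). Rps3 in replicate 4 was well below its group, while Rps6 in replicate 4 was the highest value.

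The laminin receptor gene Rpsa had 35128, 34102, 35609, 33439 and 34617 before and 22625, 27469, 21275 and 24833 after culture (log2 fold change -0.53, adjusted p = 0.000122). Rps27a, made as a fusion with ubiquitin, went from 2975 ± 241 to 1507 ± 193 (-0.99). Rps14 and Rps19, whose loss of one copy causes anaemia in humans, went from 10200 ± 755 to 5718 ± 479 (-0.84) and from 7314 ± 1323 to 4118 ± 178 (-0.81). With the correction for GC content and length described below, Rps19 had a log2 fold change of -0.30 (adjusted p = 0.0265, range over 22 alternatives 1.48e-09 to 0.0265). Rps4x, encoded on the X chromosome, went from 13394 ± 673 to 7835 ± 612 (-0.78). In all 5 of these genes the groups did not overlap.

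Per kilobase of coding sequence, the mean level of the 77 subunit genes had a median of 18019 normalized counts before and 8797 after culture. Before culture it ranged 55.0-fold, from 2620 for Rpl24 to 143984 for Rpl41. Next lowest were Rpl36a (2717), Rpl13a (4824) and Rps27a (6357), and Rps29 (58850) and Rpsa (39072) were also among the highest. These ranks depend on the length used. Per kilobase of the chosen transcript, untranslated parts included, Rplp0 (26768) and Rplp1 (25983) were above Rps29 (25351) and Rpl41 (24711), and the range was 26.6-fold. Lowest by that measure were Rps15a (1006) and Rps20 (1167). Their chosen transcripts are 5179 and 3706 bases long, for coding lengths of 390 and 357. The low end of the range therefore rests on that choice of transcript. The correction for GC content and length used the same transcript lengths. By coding length, the order of the genes was broadly kept after culture (Spearman's rho 0.845 across 77 genes, a description, since genes of the same libraries are not independent).

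How far the genes fell varied with their length. The 25 subunit genes with under 400 bases of coding sequence had a median log2 fold change of -1.25, the 30 with 400 to under 600 bases -1.02, and the 22 with 600 bases or more -0.81. Across the 77 genes, Pearson's r of log2 fold change with log2 coding length was 0.569 and Spearman's rho 0.544, and with log2 transcript length they were lower, 0.415 and 0.438. For GC content of the coding sequence they were -0.342 and -0.251. These are descriptions across genes that share libraries and, in part, length and base composition. Each sample was then corrected for its smooth trend across all genes over GC content and length of the whole transcript, untranslated parts included. All 77 were still lower, with a median of -0.94. The relation with coding length, which was not itself corrected for, was then 0.572 (Pearson) and 0.599 (Spearman).

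The gap of before-culture replicate 4 varied with length as well. Its log2 difference from the other before-culture samples had a Pearson's r of 0.604 and a Spearman's rho of 0.577 with log2 coding length across the 77 genes. Without that library the same values for the log2 fold change were 0.584 and 0.561.

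**Figure D3:**
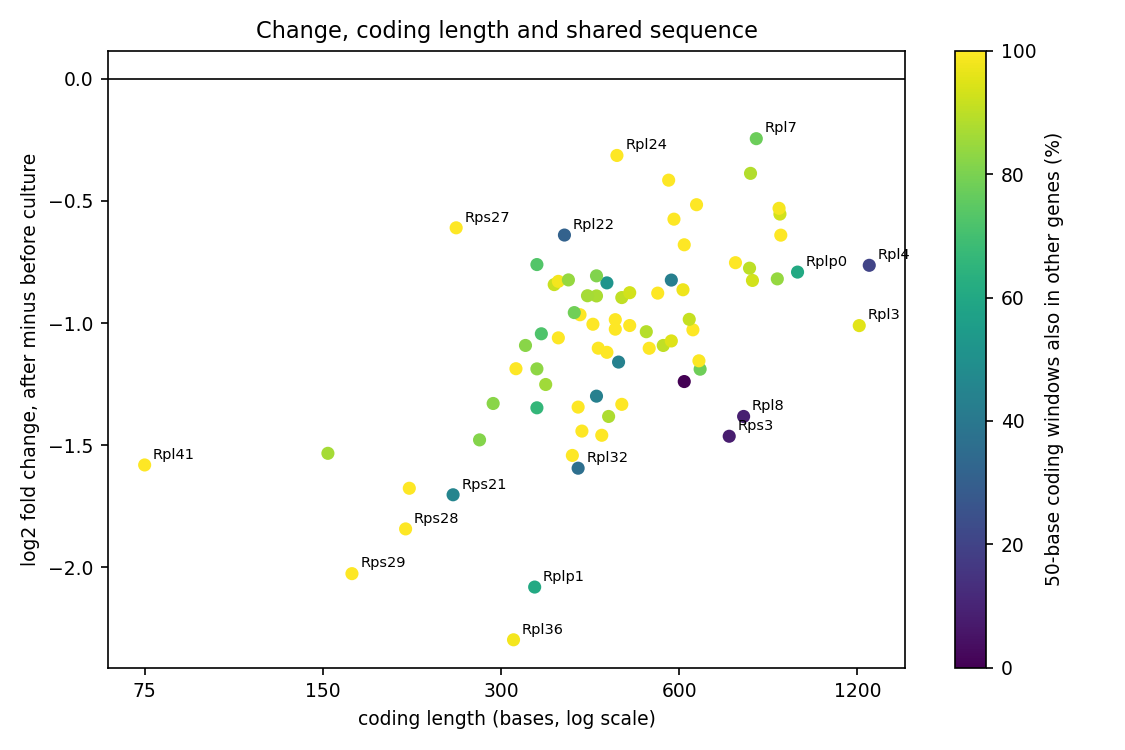
Log2 fold change after culture (vertical axis) of the 77 subunit genes against coding length in bases (horizontal log axis), coloured by the percentage of 50-base coding windows found in other genes. Rpl36, Rplp1, Rps29 and Rps28, all under 400 bases, lie lowest and long genes such as Rpl4 (-0.76) higher. The shortest, Rpl41, lies at -1.58 and Rps27, with 252 bases, at -0.61. Genes with little shared sequence such as Rpl8 and Rps3 (dark) lie among the others.

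Loss of reads to copies elsewhere in the genome was looked at in several ways. Of the 50-base windows of a subunit gene's coding sequence, a median of 93.0% also occurred in another annotated gene, and in 29 of the 77 genes every window did. The 10 genes with under 50% shared windows included Rpl4, Rpl8, Rpl22, Rpl32, Rps3, Rps9, Rps15 and Rps21. All 10 were called lower, with a median log2 fold change of -1.27. The 38 genes with 50 to under 100% had a median of -0.93, and the 29 with 100% had -1.03.

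Rps3, described above, shared 8.09% of its windows and Rpl8, a large-subunit protein close to the catalytic centre, 8.73%. Rpl8 had 9800, 9328, 9527, 6118 and 9659 normalized counts before and 3438, 3694, 2923 and 3426 after culture (log2 fold change -1.38, SE 0.130, adjusted p = 5.94e-07). Replicate 4 was lowest before culture, and the groups did not overlap. Shared sequence had a Pearson's r of 0.124 with the log2 fold change and 0.003 with the level per kilobase before culture across the 77 genes.

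The table lists 652 rows of ribosomal protein pseudogenes, 290 named with -ps and 362 annotated as such under other names, and 150 of them had no read. Together they held 0.0207% ± 0.00163 of named reads before and 0.0159% ± 0.00204 after culture. Of every 100 reads in members and pseudogenes, 0.697 ± 0.0302 were in pseudogene rows before and 1.01 ± 0.163 after. These shares hold only reads that were counted. Reads with several matches, if left out of the counting, would be in neither kind of row. How such reads were treated is not given, so the shares do not measure the whole loss. Among the 94 pseudogene rows tested, 20 were called lower and 25 higher, with a median log2 fold change of -0.036. Over all tested genes 34.6% were called lower and 34.2% higher. The median pools unlike rows. With 100% of windows found in members, Gm10736 (-1.49) and Rpl38-ps2 (-1.61) were lower, and Rps16-ps2 (-0.15) and Rps12-ps3 (-0.05) were not called. With few such windows, Gm5055 (13.5%, 3.25) and Gm17113 (13.1%, 3.68) were higher and Gm15921 (15.9%, -0.94) was lower.

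In 3 members the copies held over 5% of the reads before culture. For Rpl41, the shortest of the proteins, the copies held 17.0% before and 17.9% after, from a mean of 2206 to 770 normalized counts. For Rpl38 they held 5.12 and 5.25%, and for the pseudogene Rps3a2 35.5 and 58.1%. In 5 further members the copies passed 5% only after culture. These were Rpl21 (2.34 to 7.23%), Rpl23a (1.03 to 5.87%), Rpl36 (0.878 to 5.46%), Rpl30 (2.35 to 5.14%) and Rpl22l1 (0.770 to 5.10%). The median over the subunit genes with such rows was 0.356% before culture. Rows counted as copies differed in the part of their windows found in members, such as 29.8% in Gm3940 and 88.1% in Gm10335, both counted with Rpl23a. How many of their reads came from the members was not tested. With pseudogene reads added to the members they resemble, the median log2 fold change of the tested members was -0.98. Exons of 21 subunit genes overlap another annotated gene, among them Rps27a (Clhc1), Rpl5 (Fam69a), Rpl13a (Gm45713) and Rpl24 (Gm28037), and their values carry that uncertainty.

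The paralogs went in both directions. Rps27l, a close relative of Rps27 and a known target of the tumour suppressor Trp53 (chr9:66946086-66949516, plus strand), had 676, 669, 725, 658 and 628 normalized counts before and 1571, 1511, 1418 and 1546 after culture. Every after-culture sample was above every before-culture sample, and replicate 4 lay within its group. The log2 fold change was 1.17 (SE 0.0723, adjusted p = 8.90e-09). Rps27 itself had 7350, 7306, 7375, 6370 and 6324 before and 4571, 4795, 4207 and 4600 after (-0.61, SE 0.0759, adjusted p = 8.98e-06). Per 100 counts of Rps27 there were thus 9.69 of Rps27l before and 33.3 after culture.

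Rpl7l1, a relative of Rpl7 found in precursors of the large subunit (chr17:46773907-46782672, minus strand), had 1149, 1101, 1264, 903 and 1112 before and 1500, 1709, 1344 and 1536 after culture. Again no after-culture value fell among the before-culture ones. The log2 fold change was 0.46 (adjusted p = 0.00104). Rpl22l1, which can replace Rpl22 in the ribosome (chr3:28805436-28807424, plus strand), went the other way. It had 394, 509, 458, 418 and 415 before and 215, 253, 189 and 245 after (-0.96, SE 0.116, adjusted p = 6.84e-06), and with the GC and length correction the log2 fold change was -1.53.

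The ratio of paralog to parent was compared in 5 pairs by an exact two-sided permutation test of the per-sample log2 ratio over the 126 splits of 9 samples. The smallest p these splits allow is 0.0159, or 0.0198 after adjustment over the 5 pairs. That value was reached for Rps27l/Rps27 (log2 ratio higher by 1.78), Rpl7l1/Rpl7 (higher by 0.71), Rps4l/Rps4x (higher by 0.53) and Rpl22l1/Rpl22 (a difference of -0.32). The parent was lower after culture in every pair, so a higher ratio can come without a rise of the paralog. Rps4l itself was not called (log2 fold change -0.24), while Rps4x was lower (-0.78). Per 100 counts of Rpl7 there were 8.55 of Rpl7l1 before and 13.8 after culture, and per 100 of Rpl22 there were 15.5 and 12.3 of Rpl22l1. Rpl3l, a muscle form of Rpl3, gave a difference of 0.26 in its ratio (exact p = 0.206, adjusted p = 0.206).

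**Figure D4:**
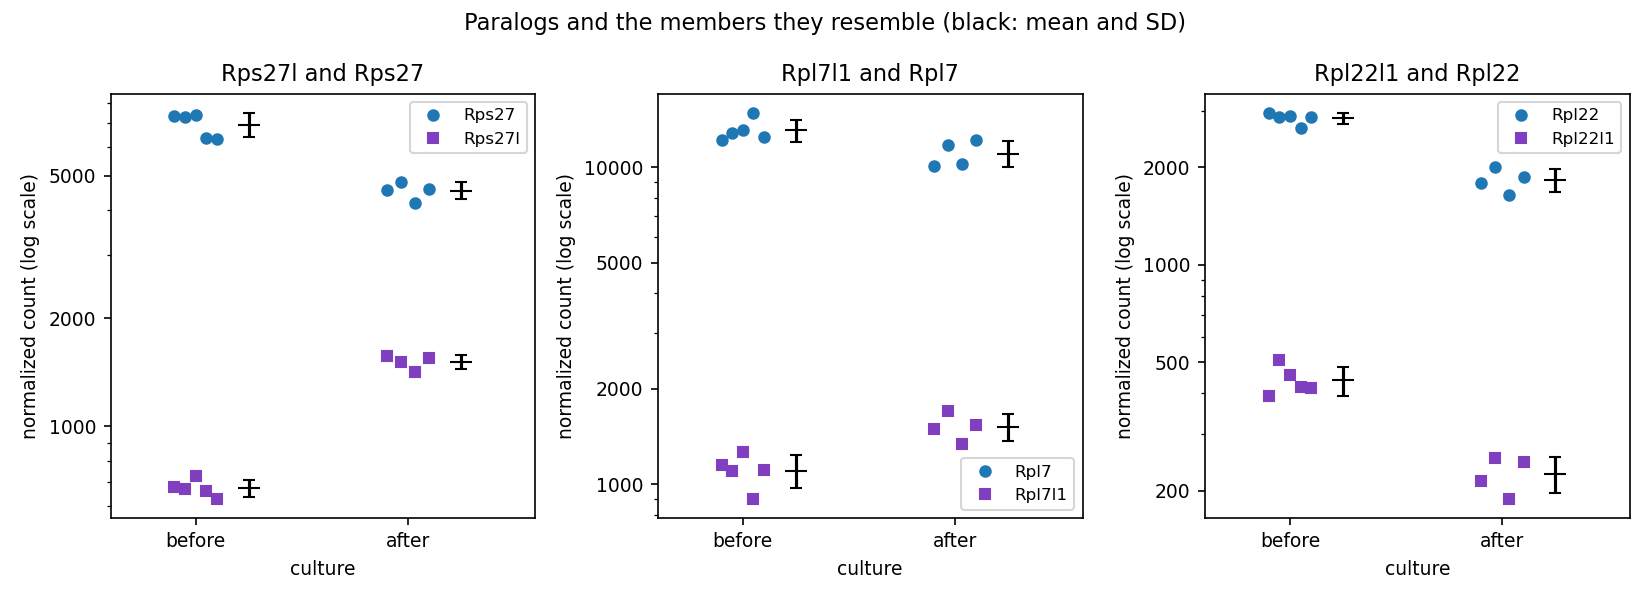
Normalized counts (vertical log axes) of 3 paralogs (squares) and the subunit genes they resemble (circles) in each of the 5 before-culture and 4 after-culture samples, with means and SDs in black. Rps27l and Rpl7l1 are higher after culture while Rps27 and Rpl7 are lower, and Rpl22l1 and Rpl22 are both lower.

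Other like copies were weakly expressed. Rps4l, annotated as a pseudogene, had 178 ± 29.1 before and 150 ± 16.9 after culture and was not called (log2 fold change -0.24, adjusted p = 0.159). Rpl6l had 16.8 ± 4.14 and 5.93 ± 3.18 (-1.45, adjusted p = 0.00449, and -0.84 with a pseudocount of 8). Rps3a2 had 15.2 ± 5.61 and 12.0 ± 1.86 (-0.26, adjusted p = 0.497). Rpl3l had 23.8 ± 5.50 and 13.7 ± 2.98 (-0.75, adjusted p = 0.0274), a call lost in 10 of the 21 alternatives that tested it, over which its adjusted p ran from 0.0218 to 0.275.

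Genes around the ribosome were followed as written lists, read against 34.6% of all tested genes called lower and 34.2% higher. Ribosomal protein genes that the symbol rule misses moved with the others. Fau, which encodes a small-subunit protein fused to a ubiquitin-like one, had a log2 fold change of -0.88, the signalling scaffold Rack1 -0.90 and Rpl36al -1.14. All 4 tested on this list were called lower.

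Translation factors were mixed. Of 11 elongation and release factors, 7 were lower and 1 higher, with a median of -0.32. Eef2, which moves the ribosome along the mRNA, went from 72049 ± 7061 to 32430 ± 3042 normalized counts (-1.15), Eef1b2 fell by 1.05 and Eif5a fell by 0.65 on the log2 scale, while the ribosome recycling factor Abce1 was higher (0.42). Of 36 initiation factors, 10 were lower and 7 higher, with a median of -0.12. Eif2b2 (-1.09), Eif4g3 (-0.91) and Eif3f (-0.88) were lower, and Eif1ax (0.57) and Eif1a (0.46) were higher. Of 20 other TOP mRNAs, several of which stand in the lists above, 16 were lower and 4 were not called, with a median of -0.41.

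Among 8 host genes of small nucleolar RNAs, which guide the modification of ribosomal RNA and several of which carry TOP motifs, 6 were lower and 1 higher, with a median of -0.53. Snhg8 went from 454 ± 84.8 to 103 ± 14.3 (-2.11), Snhg12 from 407 ± 44.9 to 141 ± 21.9 (-1.53) and Snhg1 from 1019 ± 91.7 to 503 ± 72.5 (-1.02). Snhg17 was higher (0.30). The 46 ribosome assembly factors had 23 lower and 12 higher, with a median of -0.17. The RNA methylase Fbl (-1.11), its partner Nop56 (-0.92) and Noc4l (-1.04) were lower, and Rcl1 (0.78) and Wdr75 (0.65) were higher. The RNA polymerase I machinery, which makes ribosomal RNA, had 10 of 21 lower and 6 higher (median -0.10), with Polr1d (-0.80) and Polr1a (-0.74) lower and Rrn3 (0.37) and Tbp (0.84) higher.

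Growth signalling genes showed no common direction, with 7 of 24 lower, 10 higher and a median of 0.05. Rptor, the mTOR partner that selects substrates, went from 3121 ± 170 to 5853 ± 336 (0.91), and Mxi1 (1.00) and Mdm2 (1.00) were higher too. Sesn2 (-1.42), Larp1b (-0.79) and Myc (-0.56) were lower. Mtor itself (3434 ± 153 and 3461 ± 164), Larp1 (8327 ± 809 and 8844 ± 771) and Trp53 (2571 ± 144 and 2286 ± 178) were not called. Mitochondrial ribosomal proteins, which build a separate ribosome, had 19 of 78 lower, 22 higher and 37 not called, with a median of 0.003. Among them Mrpl1 (1.21), Mrpl13 (0.86) and Mrpl39 (0.86) were higher, and Mrpl52 (-1.73) and Mrps26 (-0.68) were lower.

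**Figure D5:**
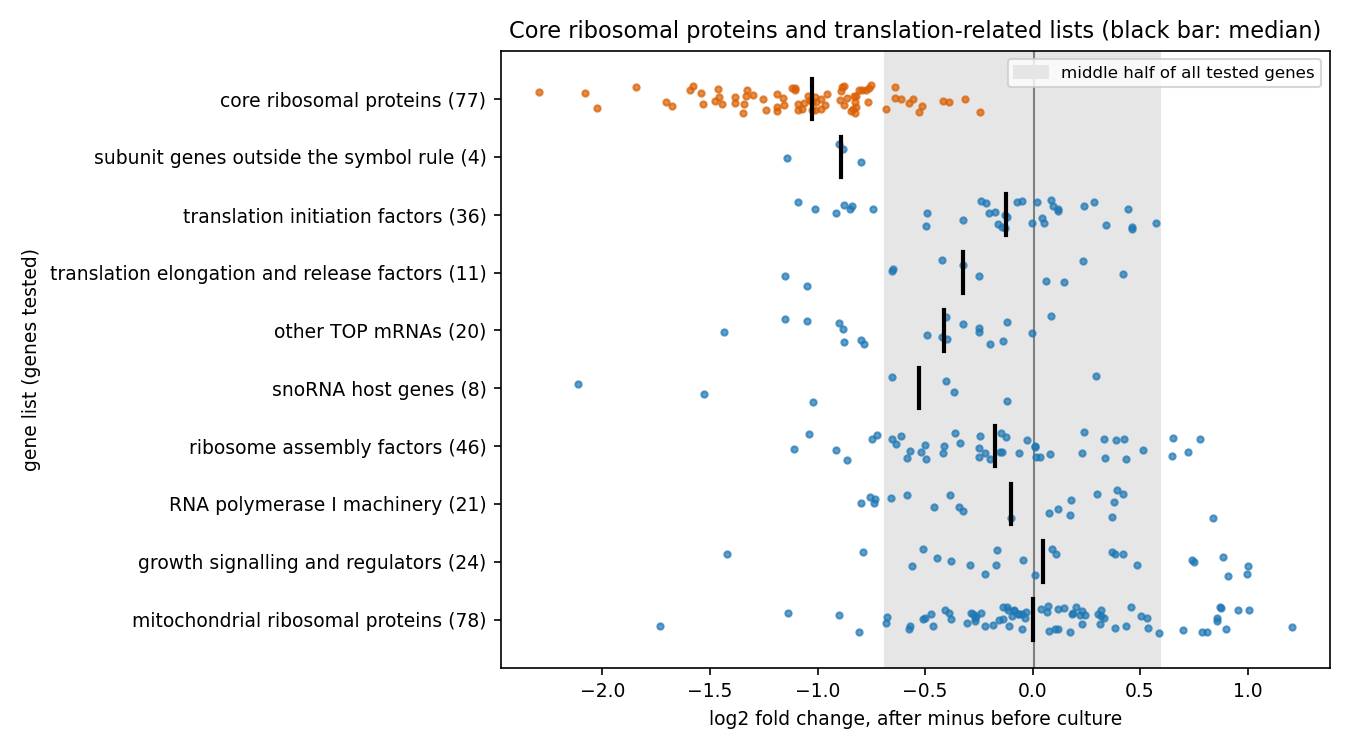
Log2 fold change after culture (horizontal axis) of the 77 subunit genes and of 9 lists related to translation (vertical axis, number of genes tested in brackets), with black bars for medians and grey for the middle 50% of all tested genes. The subunit genes have a median of -1.03 and all lie below 0, and the mitochondrial ribosomal proteins have a median of 0.003.

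The falls were also set against the annotated starts, as a description. The 13 subunit genes with C and 4 pyrimidines at the start had a median log2 fold change of -1.09 and the 44 without it -0.96. The 30 genes with a run of at least 8 pyrimidines near the start had a median of -0.99 and the 27 without it -0.97. Of the start sites printed above, Rps27 (-0.61) and Rps21 (-1.70) both had the motif, and Rps28 (-1.84) did not.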

How the data were processed

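RNA of 5 samples before and 4 samples after culture was sequenced by a company, with RNA purified on Qiagen columns per the labels' protocols. The deposited table holds gene read counts divided by 1 factor per sample, a signal that is never negative. DESeq2 and the build GRCm38 are named in the submitters' processing notes without versions, and the aligner, counting tool, strand setting and treatment of reads with several matches are not given in the sources used here. All values (100%, within a relative tolerance of 1e-06) were whole multiples of the worth of 1 read, so whole reads were recovered. The 3782 of 49317 rows without a symbol (6.43 to 10.9% of reads before and 3.87 to 5.46% after culture) stayed out of tests and depths.

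The fit was limma 3.58.1 in R 4.3.3 on log2(value + 1), group as the only term, with a mean-variance trend, over all named genes with a mean of at least 10 (18202 genes). Tests were two-sided with Benjamini-Hochberg adjustment over these genes and a threshold of 0.05. A fold change on this scale understates the change of low genes. Comparing such values across samples assumes that most genes stay alike, and levels between genes were compared per kilobase of coding sequence. Coding sequences, shared 50-base windows and pseudogenes came from GENCODE M21 on GRCm38. Alternatives were edgeR 4.0.16 and DESeq2 1.42.0 on recovered reads, other scalings, filters and pseudocounts, and pseudogene reads added to members. Others were replicate blocks, each sample left out in turn, and a correction for GC content and length of the whole transcript. That correction was available for 96.49% of tested genes.

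On simulated counts for the after-versus-before comparison, limma recovered 176 of 200 genes changed 2-fold at a dispersion of 0.02 (18053 genes) and 29 of 200 at 0.1 (18005 genes). Replicates of a group differed by more than sampling noise (chi-square per degree of freedom 7.02 to 66.9). Named genes were the 5 largest falls and rises and the 3 smallest changes at a mean of at least 100, genes listed by name, paralogs, and of each list the 3 genes with the smallest adjusted p and up to 2 called against the list's median. Rpl8, Rpl21, Rpl23a, Rpl30, Rpl38 and Rpl41 were named after their values were seen, as were the genes given by their level per kilobase and Trp53, Mtor, Larp1 and Myc. Some results are not reported here. The members and lists were chosen with earlier results of these data known.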

Additional observations from a re-analysis of the deposited data

Results flagged for a closer look

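In 9 of the 74 groups of values examined, the most extreme sample lay far from the others by Dixon's test at the 95% level, which chance gives in about 1 of 20 groups. In 7 of them a subunit gene was lowest in before-culture replicate 4. Its normalized counts were 1615 for Rpl36, 3705 for Rps29, 2673 for Rps28, 3294 for Rplp2, 16985 for Rpl3, 8870 for Rps14 and 4963 for Rps19. These groups are not independent, since they share that library. The log2 ratio of Rpl7l1 to Rpl7 was also lowest in the same sample, at -4.03 against -3.53 to -3.37 in the other before-culture samples. Among the after-culture samples, the log2 ratio of Rps4l to Rps4x was highest in replicate 4, at -5.58 against -5.75 to -5.74. Beside these values, replicate 4 before culture had the lowest share of reads in rows without a symbol, 6.43%, and its part in them was not tested.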

How the results depend on the processing

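Under the alternatives tried, 78 to 81 members were called lower and 2 higher (3 with the GC and length correction), with a median log2 fold change from -1.06 to -0.90. Leaving out each sample in turn gave 78 to 81 lower and -1.06 to -0.95. The median of all tested genes shifted to 0.114 under upper-quartile scaling and 0.132 under the GC and length correction. The members' median was then -0.90 and -0.92. Relative to the median of all tested genes it was -1.01 and -1.05, against -1.01 in the main fit. Of 657 values of single named genes under alternatives, 641 kept direction and call, though the GC and length correction moved Rps19 from -0.81 to -0.30 and Rpl22l1 from -0.96 to -1.53. Rps4l turned to 0.37 with the GC and length correction (adjusted p = 0.0254, range 0.0254 to 0.852) and was called lower without before-culture replicate 4 (adjusted p = 0.0402). Rps3a2 turned to 0.26 with pseudogene reads added (adjusted p = 0.366, range 0.261 to 0.815). The mitochondrial ribosomal proteins called lower numbered 12 under quantile normalization, and 12 to 25 when a sample was left out, 12 without after-culture replicate 3. Elongation and release factors called higher numbered 2 under quantile normalization and 1 to 2 when a sample was left out, 2 without after-culture replicate 3. With all rows in the denominator the members held 2.67 and 1.50% of reads and pseudogene rows 0.0188% before culture. With a pseudocount of 8 the Rpl3l/Rpl3 ratio differed by 0.46 (adjusted exact p = 0.0159). The causes were not tested.

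Replicate numbers were not taken as pairs, since not every same-number correlation passed 0.1. Correlations of deviations at the same number ran from -0.213 to 0.081 for the numbers in the titles and from 0.045 to 0.349 for those in the library names, and by library number all 4 after-culture samples and 3 of the 4 partnered before-culture samples correlated best with their own number, which leaves the pairing by library name unsettled. With a replicate block, which leaves out the 1 before-culture sample without a partner, 79 members were called lower under either numbering. Of all genes 11646 (titles) or 12836 (library names) were called, against 12123 and 11949 for the same 8 samples without a block. Within the 4 pairs by library number the paralog ratios differed by 1.76 (Rps27l), 0.72 (Rpl7l1), 0.55 (Rps4l) and -0.27 (Rpl22l1), with an adjusted exact p of 0.156, where 4 pairs cannot go below 0.125 unadjusted. Depth limits the copies with few reads, and shared sequence limits comparisons of levels between genes.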

Other observations

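Of the 89 members, 5 were too low to test. Rps12l1 and Rpl10l, the latter a testis form of Rpl10, were listed at 0 reads in every sample, which allows up to 3 reads, or 2.27 to 5.37 normalized counts, per sample. Rpl32l had a mean of 5.84 ± 1.91 normalized counts before and 1.31 ± 1.17 after culture, and Rps3a3 had 1.19 ± 1.10 and 0.19 ± 0.379, with at most 2 reads in a sample. Rpl39l, a testis form of Rpl39, had 6.67, 1.24, 5.61, 5.02 and 0 before and 6.18, 5.31, 25.5 and 8.36 after culture, a mean of 3.71 before and 11.3 after, or 6.62 after without after-culture replicate 3.

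Promoters from 250 bases before to 50 after the annotated start were searched on both strands for 4 motifs, whose matches were allowed to share bases. CCGGAA, the core of ETS family sites, occurred in 32 of the 57 subunit genes with an entry (56.1%), against 16.7% of all 27025 genes. GGGCGG, the GC box of Sp family factors, occurred in 61.4% against 38.2%, GCCAT, the core of Yy1 sites, in 54.4% against 44.2%, and TATAAA in 10.5% against 15.7%. These are matches of letters, not sites.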
